A study of Mus musculus with 59 samples.

Results

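The genes described here encode kinesin-1, the motor that carries mitochondria, vesicles and other cargo along microtubules towards the axon terminal. Its heavy chains hold the motor domain and come from Kif5a and Kif5c, which are known mainly from neurons, and from Kif5b, which most cell types express. Its light chains (Klc1, Klc2, Klc4) bind many of the cargoes and hold the motor inactive when no cargo is bound. All 6 genes were found among the 18088 genes of the table by matching Ensembl identifiers to symbols, and all 6 were high enough to be tested. The set was selected on measured values, the log2 differences between heterozygous and wild-type libraries, in which Kif5c and Kif5b were already known to be higher, so differences between genotypes are given for these genes as a description with no test.

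The data are 59 libraries of messenger RNA, each from the whole prefrontal cortex of a C57BL/6J mouse on postnatal day 25. In 29 of them the animal was heterozygous for Naa15 (HT), and in 30 it was wild type (WT). The protein of Naa15 anchors the N-terminal acetyltransferase NatA to the ribosome. Each genotype received vehicle, fluoxetine, which blocks serotonin reuptake, or lithium, a mood stabiliser, through the mother's milk from day 3 to day 24. Females and males of each genotype and treatment made 12 groups of 5 libraries, except 4 HT vehicle males. The labels name no allele, dose or litter, so pups may share a mother, and every p-value measures only the spread between these libraries.

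Naa15 itself had normalised counts of 1476, 1631 and 1971 (lowest, median and highest) in WT and 1510, 1670 and 1909 in HT libraries. These ranges overlap almost fully (log2 difference HT minus WT 0.02 ± 0.023, adjusted p = 0.648), and under fluoxetine Naa15 was higher in HT by 0.12 ± 0.040 (adjusted p = 0.0149, and 0.06 with 0.633 without the HT females), so the level of the targeted gene does not check the labels, and HT and WT are used as labelled. Libraries held 24.99 to 32.87 M reads. Along the main axis of variation between libraries (14.4% of the variance), 25 libraries, those of the 20 lithium mice and the 5 HT females given fluoxetine, lay apart from the other 34. They took 6.76 to 10.3% of their signal from mitochondrial genes against 4.96 to 7.83% in the others. Their values also fell with the GC content of genes, with slopes of -0.26 to -0.06 log2 units per 10 percentage points against -0.06 to 0.19. Whether this profile belongs to the treatment, to a batch or to the labels of the 5 females cannot be told apart from the files used here. Values without these females, or after the GC and length trend was subtracted, stand beside the results they change. Leaving the females out drops every matched comparison of groups that includes them. HT against WT then lacks fluoxetine females of both genotypes, and fluoxetine in HT and its interaction rest on males alone. All 6 markers of excitatory cortical neurons were in the table, with summed counts of 49025 to 74835 over all libraries. Summed markers of some other cells varied more between libraries, from 2845 to 16989 for striatal neurons, from 35987 to 208646 for oligodendrocytes and from 46.5 to 2982 for choroid plexus, of which Folr1 had a mean below 10.

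Kif5c (ENSMUSG00000026764) lies on chromosome 2 at 49619298 to 49774778, plus strand, and Kif5a (ENSMUSG00000074657) on chromosome 10 at 127225696 to 127263348, minus strand (GRCm38). The identifier of Kif5b is ENSMUSG00000006740. Klc1 (ENSMUSG00000021288) lies on chromosome 12 at 111758849 to 111807844, plus strand. Klc2 (ENSMUSG00000024862) lies on chromosome 19 at 5107746 to 5118560 and Klc4 (ENSMUSG00000003546) on chromosome 17 at 46630624 to 46646022, both on the minus strand. All values are gene totals, so exons, introns and UTRs were not measured apart. The genes differ in base composition: the GC content of the longest transcript was 41.1% for Kif5b, 47.5% for Kif5c, 53.8% for Kif5a, 56.0% for Klc1, 59.1% for Klc4 and 60.4% for Klc2.

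RefSeq promoters (GRCm38.p6) matched 3 of the 6 genes. They are shown for Kif5c, the gene whose HT and WT libraries overlapped least, and for Klc1 and Klc4, 2 of the light chains that were lower together under lithium. Each run gives the bases from 250 to 26 upstream of the RefSeq start, 5′ to 3′ on the gene's strand, with the letters TGACG or their reverse complement in capitals.
Kif5c: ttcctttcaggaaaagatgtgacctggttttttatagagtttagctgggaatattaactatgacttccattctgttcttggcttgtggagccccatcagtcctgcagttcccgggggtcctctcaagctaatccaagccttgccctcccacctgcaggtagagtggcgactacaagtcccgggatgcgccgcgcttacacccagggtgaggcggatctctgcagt
Klc1: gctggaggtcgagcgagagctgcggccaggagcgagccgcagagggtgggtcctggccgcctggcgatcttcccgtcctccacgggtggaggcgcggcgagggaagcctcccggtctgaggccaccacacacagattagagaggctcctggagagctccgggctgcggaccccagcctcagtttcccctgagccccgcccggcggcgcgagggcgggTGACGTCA
Klc4: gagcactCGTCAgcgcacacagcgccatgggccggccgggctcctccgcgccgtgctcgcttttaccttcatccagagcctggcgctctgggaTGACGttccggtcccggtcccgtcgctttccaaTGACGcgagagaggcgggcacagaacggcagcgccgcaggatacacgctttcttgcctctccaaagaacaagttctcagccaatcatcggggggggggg

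The windows are chr2:49619036-49619260 (plus strand), chr12:111758618-111758842 (plus strand) and chr17:46646106-46646330 (minus strand). Their GC content was 52.9% in Kif5c, 72.0% in Klc1 and 64.9% in Klc4, the same order as in the longest transcripts of these genes except that Klc1 and Klc4 changed places. The motifs searched, on both strands, were the cAMP response element TGACGTCA and its shorter core TGACG, the GC box GGGCGG, the E-box CACGTG, the CCAAT box CCAAT and the TATA box TATAAA. The full cAMP response element, which contains TGACG on both strands, stood in the Klc1 window, starting 33 bases upstream of the RefSeq start, and in 1.20% of 32817 RefSeq windows of the same length. The shorter core stood at 3 places in Klc4 and in 15.3% of all windows. Klc1 also held 2 GC boxes (29.2% of all windows) and Klc4 held 2 CCAAT boxes (31.6%). Kif5c held only the letters of a TATA box, on the opposite strand and 220 bases upstream (10.6%), and no window of the 3 held an E-box (5.16%). These are matches of letters and no binding was measured.

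Per kilobase of exon, Kif5a was the most abundant heavy chain in each library. Its normalised count per kb was 10351 ± 877 (SD, n = 59), above Kif5c with 4168 ± 528 and Kif5b with 741 ± 100. Among the light chains Klc1 led with 4848 ± 487, followed by Klc2 with 1567 ± 174 and Klc4 with 211 ± 21.5. The order within each family was therefore clear of the spread between libraries, whereas Kif5c and Klc1 had ranges that overlap. Klc3, a light chain outside the set, was near the filter with normalised counts of 8.29 to 39.2. In WT, Kif5a made up 70.4% ± 1.43 (SD, n = 30) of the heavy-chain signal per kb, Kif5c 25.1% ± 1.11 and Kif5b 4.54% ± 0.535. In HT these shares were 65.2% ± 1.49 (SD, n = 29), 29.6% ± 0.920 and 5.22% ± 0.680. Light-chain shares hardly differed: Klc1 made up 73.0% ± 0.840 in WT and 73.4% ± 0.628 in HT.

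**Figure D1:**
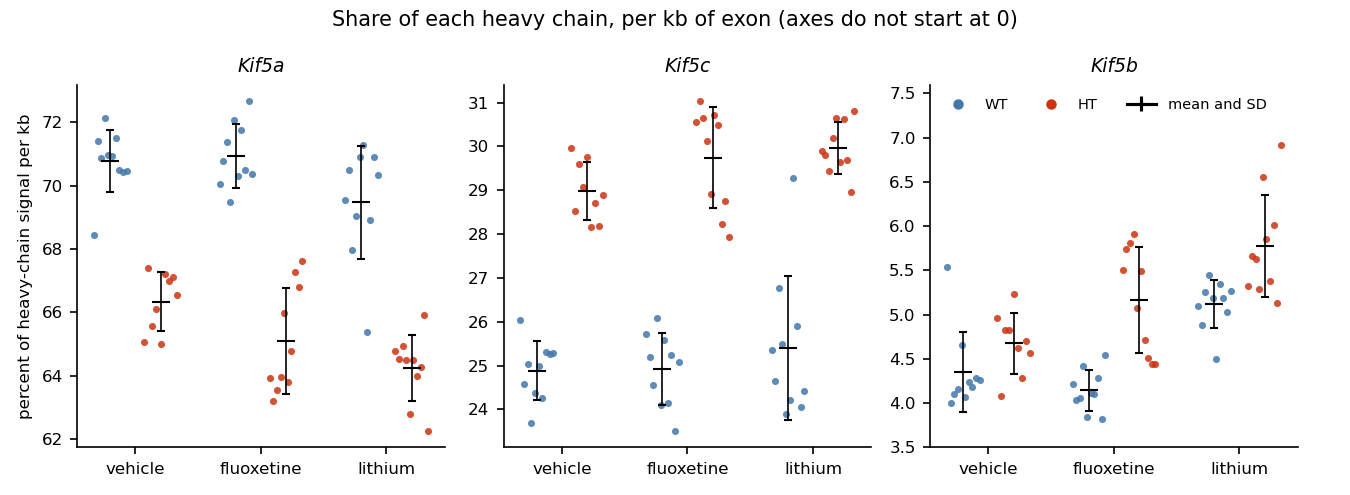
Share of each heavy chain in the summed heavy-chain signal per kb of exon, in percent, for each library by treatment (x axis) and genotype (colour), with means and SD; the y axes do not start at 0. Under vehicle the Kif5c share ran from 23.7 to 26.0% in WT and from 28.2 to 30.0% in HT, whereas over all treatments 1 WT lithium library, at 29.3%, lay among the HT values.

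Kif5c was higher in HT than in WT libraries in each treatment and sex. Under vehicle, the 5 WT females had normalised counts of 24504, 25111, 26385, 27775 and 27908, and the 5 HT females had 32925, 33557, 33889, 35017 and 37789. The 5 WT males had 26212, 26866, 27436, 27655 and 28186, and the 4 HT males had 31301, 32774, 34980 and 35487. The lowest HT value lay above the highest WT value in both sexes. Under fluoxetine, WT libraries had 23793, 27074 and 28387 (lowest, median and highest, n = 10) and HT libraries had 31232, 32899 and 36212 (n = 10). Under lithium, WT libraries had 24545, 25512 and 27150 (n = 10) and HT libraries had 28209, 32254 and 34252 (n = 10). Again no HT value fell among the WT values of the same treatment.

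Over all treatments WT libraries averaged 26473 ± 1297 (SD, n = 30) for Kif5c. The HT mean was 33182 ± 1993 (SD, n = 29), a log2 difference of 0.33 ± 0.018 (SE of the fit), or 25.3% more. The difference was 0.35 ± 0.032 under vehicle, 0.30 ± 0.031 under fluoxetine and 0.33 ± 0.031 under lithium. Of 29 HT libraries, 28 exceeded the highest of all WT libraries, 28387; the exception, an HT lithium male at 28209, exceeded the WT libraries of its own treatment and sex, the highest of which was 26927. HT and WT did not overlap in any of the 6 combinations of treatment and sex. Among 17891 genes tested, 0.00559% (1 gene, Kif5c) were higher in HT without overlap in all 6, and this contrast was used to choose the gene, so nothing is read from that share. No gene had each of the 29 HT libraries above each WT library (0%), 1 gene, 2410018L13Rik, named here after its values were seen, had each HT library below (0.00559%), and 0.0112% were higher in HT without overlap under vehicle alone. By size of the increase in HT, Kif5c stood at rank 401 of 17891. Summed neuron markers ran from 118041 to 152046 in WT and from 112286 to 145833 in HT, and these ranges overlapped.

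**Figure D2:**
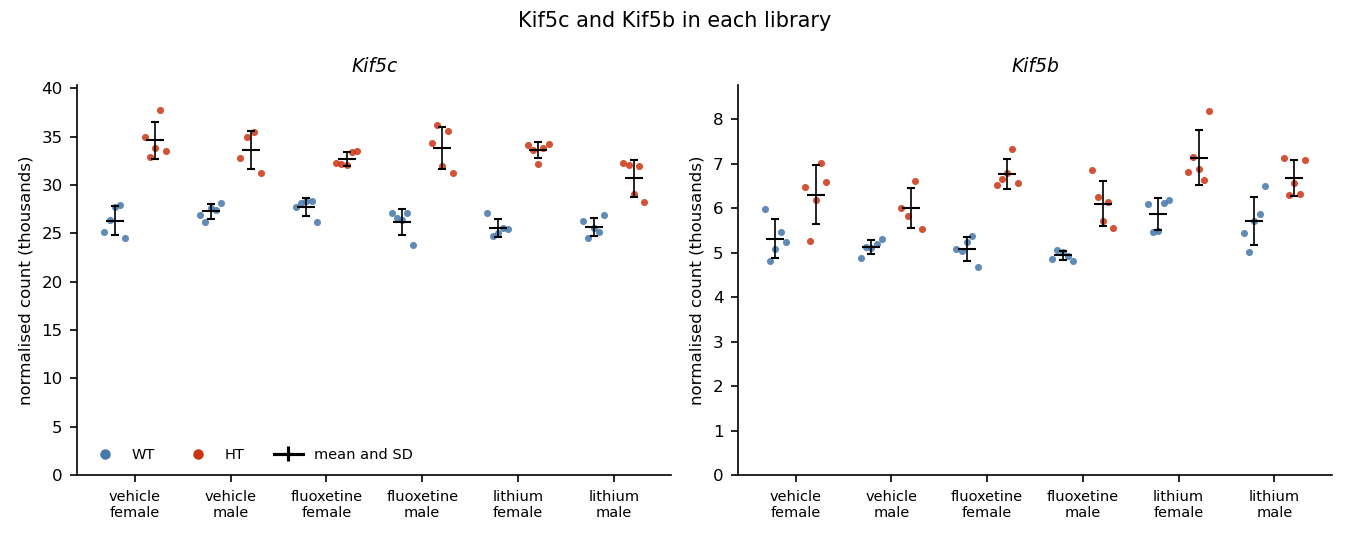
Normalised counts (axis scale as labelled) of Kif5c and Kif5b in each of 59 libraries, by treatment and sex (x axis) and genotype (colour), with the mean and SD of each group. Kif5c values of HT and WT are apart in all 6 columns, with the closest pair under lithium in males (28209 in HT, 26927 in WT), while Kif5b values overlap in 2 of 6 columns.

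Kif5b, the heavy chain that most tissues share, was also higher in HT, with more overlap. Under vehicle, WT libraries had normalised counts of 4803, 5157 and 5969 (lowest, median and highest, n = 10) and HT libraries had 5259, 6180 and 7014 (n = 9). Under fluoxetine the values were 4668, 5028 and 5371 in WT and 5551, 6546 and 7338 in HT (n = 10 each). Under lithium they were 5014, 5795 and 6492 in WT and 6291, 6845 and 8185 in HT (n = 10 each). The genotypes were apart under fluoxetine and overlapped under vehicle and under lithium. The log2 difference over all treatments was 0.28 ± 0.026, with 0.23 ± 0.046 under vehicle, 0.36 ± 0.045 under fluoxetine and 0.25 ± 0.045 under lithium. HT values stood clear of WT values in 4 of 6 combinations of treatment and sex, and 17 of 29 HT libraries exceeded the highest WT library. This contrast was used to choose Kif5b, and the matching shares of all genes were not counted. Nothing is therefore read from these counts.

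Kif5a, the most abundant heavy chain, and the light chains did not share this pattern. Under vehicle the log2 difference HT minus WT was 0.04 ± 0.051 for Kif5a, 0.01 ± 0.035 for Klc1, 0.02 ± 0.042 for Klc2 and -0.0019 ± 0.047 for Klc4. Over all treatments it was -0.02 ± 0.029 for Kif5a, -0.05 ± 0.020 for Klc1, -0.08 ± 0.024 for Klc2 and -0.06 ± 0.027 for Klc4. Without the 5 HT fluoxetine females these became 0.01, 0.0036, -0.03 and -0.02, while Kif5c stood at 0.34 ± 0.021 and Kif5b at 0.26 ± 0.030. Klc1 and Klc2 kept the genotypes apart in 1 of 6 combinations of treatment and sex, the fluoxetine females, with HT lower by -0.31 ± 0.035 and -0.31 ± 0.033. Kif5a and Klc4 did so in 0 of 6. The share of all genes apart in the fluoxetine females was not counted, so nothing is read from these counts. Among all genes tested, 14.7% were called between HT and WT over all treatments, 2.96% without the 5 females, and 0.106% under vehicle.

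**Figure D3:**
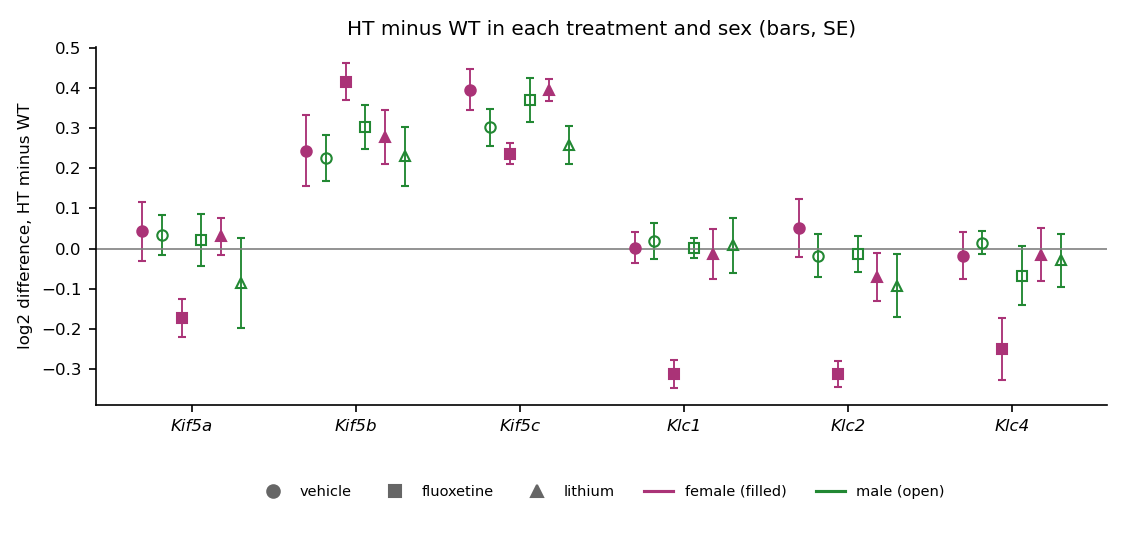
Log2 difference HT minus WT (y axis) for each of the 6 genes in each treatment (marker shape) and sex (colour and fill), with the SE of each difference from its own libraries. Kif5c lies between 0.24 and 0.40 and Kif5b between 0.22 and 0.41 in all 6 strata, whereas the fluoxetine females stand below the other strata for Kif5a, Klc1, Klc2 and Klc4.

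The nearest tested protein-coding genes on each side of Kif5c on chromosome 2 were compared between genotypes in the same fit. HT minus WT over all treatments was 0.01 ± 0.031 for Mbd5 and -0.04 ± 0.023 for Epc2 on one side, and 0.02 ± 0.070 for Lypd6b and -0.05 ± 0.032 for Lypd6 on the other. None of these 4 genes was called (adjusted p of 0.260 to 0.883 by limma). The 4 tested protein-coding neighbours of Kif5b had differences of 0.01 to 0.05 and adjusted p of 0.121 to 0.903.

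Lithium was compared with vehicle over both genotypes and sexes, a contrast not used to choose the genes. All 3 light chains fell, and so did Kif5a and Kif5c, while Kif5b rose; limma called 6 of 6 genes where 63.1% of all genes were called (30.4% lower and 32.7% higher). With only 6 genes and so high a background, nothing is read from this share. For Klc1, a light chain enriched in neurons, vehicle libraries had normalised counts of 19470, 20949 and 22492 (lowest, median and highest, n = 19) and lithium libraries had 14964, 17408 and 19910 (n = 20). For Klc2 the values were 5799, 6916 and 7570 under vehicle and 4833, 5783 and 6480 under lithium. For Klc4 they were 488, 534 and 579 under vehicle and 398, 474 and 511 under lithium. The ranges overlapped, most for Klc2: 2 of 20 lithium libraries reached the vehicle range for Klc1, 4 for Klc4 and 9 for Klc2. Even so, 20 of 20 lithium libraries lay below the vehicle mean of their genotype and sex for each light chain.

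The fall on the log2 scale was -0.25 ± 0.025 for Klc1 (adjusted p = 4.6e-13), -0.28 ± 0.029 for Klc2 (4.64e-12) and -0.21 ± 0.033 for Klc4 (1.29e-07), all by limma. Kif5a fell from 64595, 75364 and 84073 under vehicle to 53650, 69376 and 75913 under lithium, by -0.15 ± 0.035 (adjusted p = 0.000194, 17 of 20 libraries below their vehicle mean). Kif5c changed least, by -0.08 ± 0.023 (adjusted p = 0.00323, 19 of 20 libraries). Kif5b rose by 0.16 ± 0.032 (adjusted p = 2.84e-05, 19 of 20 libraries above), from 4803, 5474 and 7014 to 5014, 6309 and 8185. In whole tissue a lower value cannot be told apart from fewer cells of the type that expresses the gene.

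**Figure D4:**
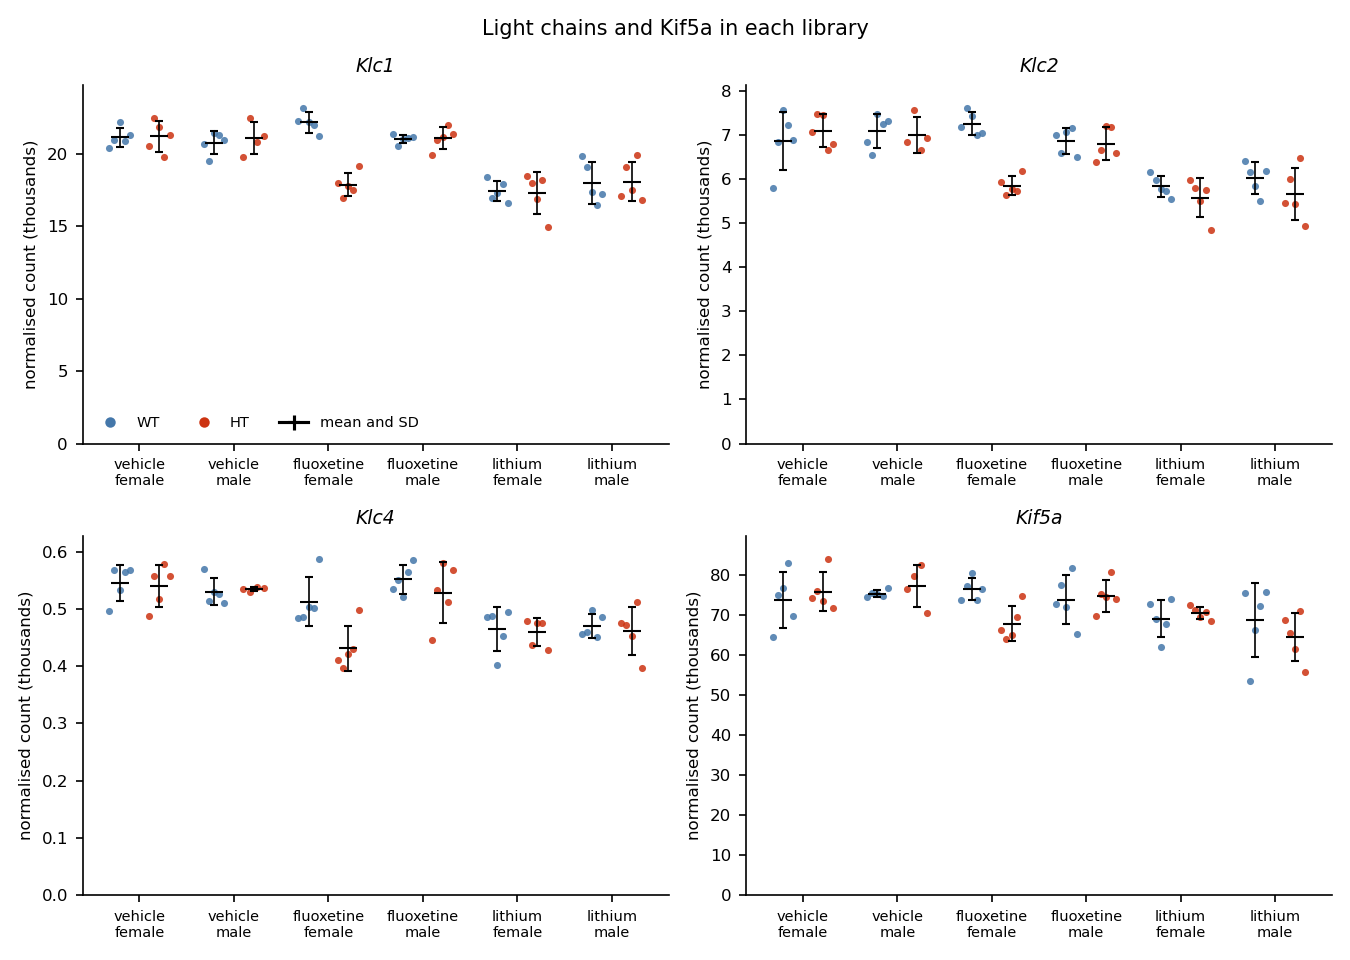
Normalised counts (axis scale as labelled) of Klc1, Klc2, Klc4 and Kif5a in each library, by treatment and sex (x axis) and genotype (colour), with group means and SD. Lithium columns and the HT fluoxetine females sit low for the light chains: Klc1 was 16936 to 19119 in those females and 14964 to 19910 under lithium, against 19470 to 22492 under vehicle.

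The lithium differences ran with the GC content of the genes, from Kif5b, the lowest in GC and the only gene that rose, to Klc2, the highest in GC and the gene that fell most, with Klc1 and Klc4 out of order. When each library's dependence on GC content and gene length was subtracted, only Klc1 remained called (-0.06 ± 0.024, adjusted p = 0.0341), with 47.5% of all genes called. Kif5b then stood at 0.03 ± 0.024, Kif5c at -0.05 ± 0.024 (adjusted p = 0.0619) and Klc4 at -0.03 ± 0.026, and Kif5a (0.05 ± 0.030) and Klc2 (0.01 ± 0.027) changed sign. Under quantile normalization Kif5c turned to 0.07 (adjusted p = 0.00154). Markers of several cell types moved with lithium too, and their part in the result was not tested. Of endothelial markers 4 of 4 fell (30.4% of all genes were called lower), with summed counts of 2754 to 4349 under lithium and 3549 to 5460 under vehicle. Mean summed counts under lithium and vehicle were 5049 and 6141 for oligodendrocyte precursors and 6333 and 7326 for microglia. They were 33451 and 33645 for astrocytes, 106193 and 106085 for oligodendrocytes and 21236 and 21991 for inhibitory neurons. Of 6 markers of excitatory cortical neurons 4 fell and 1 rose, with summed counts of 49025 to 65514 under lithium and 54395 to 74835 under vehicle. General neuron markers split, with 2 of 4 higher and 2 lower and summed counts of 112286 to 152046 under lithium and 114160 to 146582 under vehicle.

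**Figure D5:**
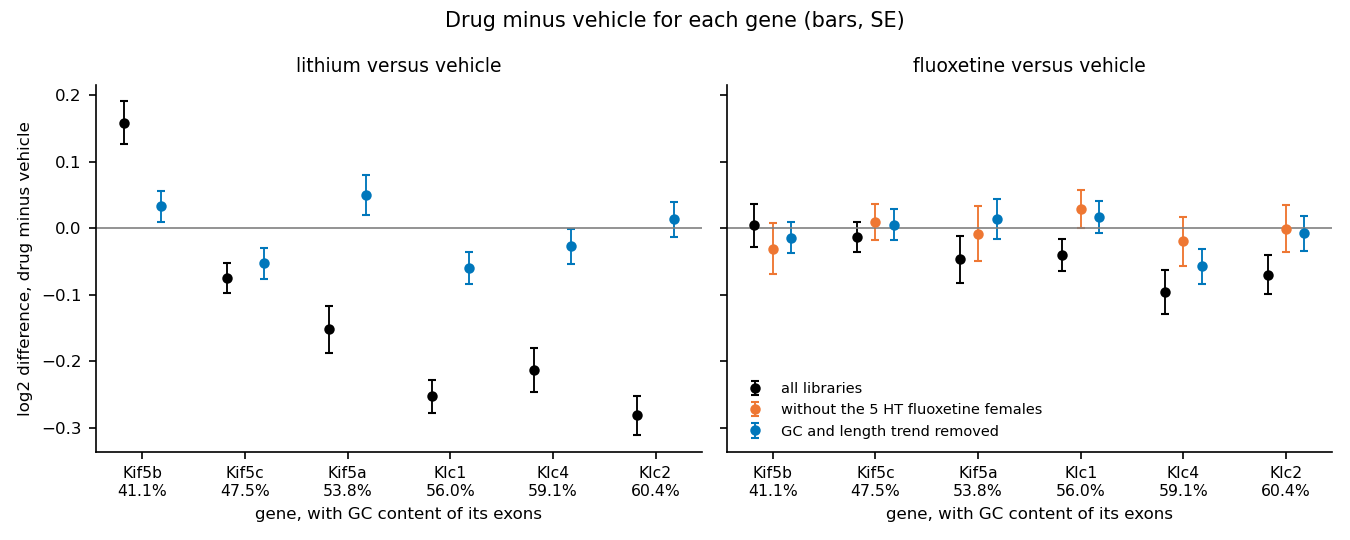
Log2 difference drug minus vehicle (y axis) with SE for the 6 genes, ordered by the GC content of their longest transcripts (labelled as exons on the axis), over all libraries, without the 5 HT fluoxetine females (fluoxetine panel) and after each library's dependence on GC and length was subtracted. Under lithium the values run from 0.16 for Kif5b to -0.28 for Klc2 and shrink to between -0.06 and 0.05 once the trend is removed.

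The lithium difference was present in both genotypes. In WT limma called 5 of 6 genes (background 52.9%), all but Kif5c (-0.06 ± 0.031, adjusted p = 0.0832). DESeq2 also called 5 (9383 of all genes), and edgeR called 6 (9425 of all genes) with Kif5c at -0.07 (adjusted p = 0.0428). In HT limma called 6 of 6 (background 50.6%). The call of Kif5a in WT (-0.12 ± 0.049, adjusted p = 0.0387) was lost without any one of 8 libraries, with adjusted p of 0.0548 to 0.158: WT lithium female replicates 3 and 4, WT lithium male replicates 2 and 3, WT vehicle female replicates 2, 3 and 4, and WT vehicle male replicate 5. Without WT lithium male replicate 2 it was -0.07, which is more than 1.5 times smaller. It was also lost under median centring (-0.10, adjusted p = 0.0816) and in a fit of only the groups compared (-0.12, 0.106). Kif5c in HT (-0.09 ± 0.032, adjusted p = 0.0224) lost its call without HT lithium male replicate 3 or 5, HT vehicle female replicate 4, or HT vehicle male replicate 2 or 3 (adjusted p of 0.0506 to 0.0658). The same happened under median centring (-0.07, 0.0563), in a fit of only the groups compared (-0.09, 0.0730) and after subtracting the trend (-0.08, 0.0701). Kif5c in WT gained one without WT lithium female replicate 1 (0.0470) or WT vehicle female replicate 5 (0.0402). After subtracting the GC and length trend 0 of the 6 were called in either genotype. For lithium against vehicle, the share of all genes called after this step was counted only over both genotypes, at 47.5%. Nothing about the 6 genes is therefore read from this count. The difference between the genotypes in the lithium response was not detected: limma called 0 of 6 and 0% of all genes, 1058 genes had an unadjusted p under 0.05, and edgeR called 0 and DESeq2 2 genes. For Kif5c this interaction was -0.02 with a 95% interval of -0.11 to 0.07. For Klc2 it was -0.10 (-0.22 to 0.02), and none of the 6 had an unadjusted p under 0.05.

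Lithium was also compared with fluoxetine, with the same lithium libraries as above. All 6 genes were called, where 53.9% of all genes were. Klc1 was lower by -0.21 ± 0.024 (adjusted p = 1.24e-10), Klc2 by -0.21 ± 0.029 (1.59e-08) and Klc4 by -0.12 ± 0.032 (0.00177). Kif5b was higher by 0.15 ± 0.032 (4.79e-05), and Kif5a (-0.10 ± 0.035, 0.00902) and Kif5c (-0.06 ± 0.022, 0.0161) were lower. Without the 5 HT fluoxetine females, 6 of 6 were called against 57.6% of all genes, with Klc4 at -0.19 ± 0.036. After subtracting the GC and length trend only Klc1 (-0.08 ± 0.024) and Kif5c (-0.06 ± 0.023) were called. The share of all genes called after this step is not given for this comparison, so nothing is read from this count.

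Fluoxetine against vehicle gave 1 call among the 6, Klc4, where 20% of all genes were called. Klc4 had 397, 508 and 588 under fluoxetine (lowest, median and highest, n = 20) and 488, 534 and 579 under vehicle, a difference of -0.10 ± 0.033 (limma, adjusted p = 0.0303, 13 of 20 libraries below their vehicle mean). The call was lost without HT fluoxetine female replicate 2 (adjusted p = 0.0534) or HT fluoxetine male replicate 1 (0.0626), and Klc2 (-0.07 ± 0.029, adjusted p = 0.0890) gained one without WT vehicle female replicate 1 (0.0218). Without the 5 HT fluoxetine females the difference was -0.02 ± 0.037 (adjusted p = 0.927), 0 of 6 genes and 2.08% of all genes were called. In WT 0 of 6 were called (background 1.02%, 182 genes by limma, 173 by edgeR and 248 by DESeq2). At an unadjusted p under 0.05, 0 of 6 passed, where 1992 of all genes did. Kif5c in WT changed by 0.01 ± 0.031 and Klc1 by 0.04 ± 0.034.

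In HT all 3 light chains fell under fluoxetine, where 31.2% of all genes were called. Klc1 fell by -0.12 ± 0.035 (limma, adjusted p = 0.00531), Klc2 by -0.16 ± 0.042 (0.00264) and Klc4 by -0.17 ± 0.047 (0.00307). The sexes are given apart, and the difference between them was not tested. Nor was the share of all genes without overlap counted within either sex. Klc1 was 16936, 17479, 17757, 18010 and 19119 in the 5 HT fluoxetine females and 19770, 20558, 21263, 21870 and 22492 in the 5 HT vehicle females, with no overlap. In males it was 19878, 20912, 21166, 21359 and 21963 under fluoxetine and 19759, 20827, 21217 and 22443 under vehicle, with full overlap. Klc2 was 5625, 5717, 5767, 5922 and 6167 in the fluoxetine females and 6651, 6793, 7051, 7456 and 7467 in the vehicle females, again with no overlap. In males it was 6370, 6585, 6652, 7182 and 7199.9 under fluoxetine and 6649, 6831, 6916 and 7570.01 under vehicle, with partial overlap.

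Left without these females, fluoxetine against vehicle in HT rested on males alone. There Klc1 stood at 0.00032 ± 0.052, Klc2 at -0.04 ± 0.063 and Klc4 at -0.02 ± 0.067, with 0 of 6 called and 0.145% of all genes called. The interaction of genotype with fluoxetine called Klc1 (-0.17 ± 0.049, adjusted p = 0.0114) and Klc2 (-0.18 ± 0.059, adjusted p = 0.0237), where 20.6% of all genes were called. This call of Klc2 ended without WT vehicle female replicate 1 (adjusted p = 0.0509) or HT vehicle male replicate 2 (0.0535), and Klc4 (-0.16 ± 0.066, adjusted p = 0.0835) gained one without HT fluoxetine female replicate 5 (0.0309) or HT vehicle female replicate 1 (0.0494). Without these females the interaction called 0 of 6 and 0% of all genes, and Klc1 and Klc2 stood at -0.02 and 0.0051. Both contrasts then use fewer libraries and males alone, and the part of that in the lost calls was not tested. The 5 HT fluoxetine females share the mitochondrial and GC profile of the lithium libraries, and after subtracting the trend Klc1 was at -0.01 and Klc2 at 0.04. The part of that profile in the result was not tested further. For Kif5c the interaction was -0.05 (95% interval -0.14 to 0.05), and 0.07 ± 0.067 (adjusted p = 0.921) without these females.

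Sex made no called difference among the 6 genes, where 8.76% of all genes were called. Kif5b came closest, with females higher by 0.07 ± 0.026 (limma, adjusted p = 0.0629). It was called (adjusted p of 0.0196 to 0.0470) without any one of 8 libraries: HT fluoxetine male replicate 1, HT lithium male replicate 5, HT vehicle female replicate 2, HT vehicle male replicate 3, WT fluoxetine female replicate 5, WT lithium female replicate 2, WT lithium male replicate 5 or WT vehicle female replicate 2. At an unadjusted p under 0.05, 2 of 6 genes passed, where 4655 of all 17891 genes did. EdgeR and DESeq2 called 0 of 6, where they called 1539 and 1627 of all genes. A difference between the sexes in the HT difference was called by limma for 0 of 6 genes (background 1.49%). At an unadjusted p under 0.05 it was 1 of 6, against 2981 of all genes. By edgeR and by DESeq2 it was 0 of 6, against 272 and 420 of all genes. The interaction was 0.03 (95% interval -0.04 to 0.11) for Kif5c and 0.06 (-0.05 to 0.17) for Kif5b. For Klc1 it was -0.12 (-0.20 to -0.04, adjusted p = 0.11). Without the 5 HT fluoxetine females it was 0.12 ± 0.047 for Kif5c (adjusted p = 0.871), 0.03 ± 0.066 for Kif5b (0.974) and -0.02 ± 0.050 for Klc1 (0.982). After subtracting the GC and length trend Klc1 was at -0.06 ± 0.039 (0.572) and Kif5b at 0.0024 ± 0.038 (0.989).

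Klc3, the remaining kinesin light chain, was lower in HT by -0.36 ± 0.11 over all treatments (limma, adjusted p = 0.0257), with a median normalised count of 17.1 in HT and 25.0 in WT and wide overlap. The call ended without the 5 HT fluoxetine females (-0.36 ± 0.13, adjusted p = 0.109) and after subtracting the GC and length trend (-0.32 ± 0.11, adjusted p = 0.0657), while the difference changed little. It was not called under vehicle (-0.43 ± 0.20, adjusted p = 0.594) or between lithium and vehicle (-0.12 ± 0.14, adjusted p = 0.486).

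Pairs of the 6 genes are described by the correlation of their log2 values across 59 libraries. Klc1 and Klc2 ran together (Pearson r = 0.93, and 0.81 once group means were taken out), and Klc4 followed them at 0.70 and 0.71 (0.25 and 0.33). Kif5b ran against Klc1 (-0.63, residual -0.55). Kif5a and Kif5c had r = 0.24 over all libraries and 0.68 within groups, so they varied together between animals of 1 group. Kif5b and Kif5c had 0.67 and 0.41. These values share size factors and the GC profile of each library.

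The genes most like each member, by Pearson r over 59 libraries, differed between the chains. For Kif5c they were Trim71 (0.70), Kif5b (0.67), Hist1h1c (0.66), Peg10 (0.64) and Itih3 (0.63), and all 5 were higher in HT, by 0.26 to 0.57. Kif5c was chosen for its difference between genotypes, so genes found this way tend to share it, and nothing is read from that. With group means taken out, r was 0.57 for Peg10, 0.41 for Kif5b, 0.20 for Itih3, 0.18 for Trim71 and -0.02 for Hist1h1c. For Kif5b they were Grik2 (0.79), Zfp62 (0.77), Cd9, Hnrnph1 and Ivns1abp (each 0.77). For Kif5a they were Frmpd3 (0.83), Cplx2 (0.82), Tbc1d9b (0.81), Csrp1 (0.81) and Srcin1 (0.80). Klc1 lay nearest to Acot7 (0.97), Rrp1, App, Cdc37 and Cadm4 (each 0.96), and Klc2 to Rab3a and Nfe2l1 (each 0.98), Slc27a4, Nckipsd and Aldoa (each 0.97). Klc4 had weaker likeness, with Ecm1, Bckdha and Nr1h2 at 0.84 and Ciz1 and Med16 at 0.83. The 10 genes listed for Klc1 and Klc2 had lithium differences of -0.20 to -0.36. Klc1 and Klc2 fell under lithium themselves, so genes found this way tend to share that fall.

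Other kinesins, which carry cargo by their own tails or act on spindles, were examined beside kinesin-1. Under lithium 8 of 40 rose and 17 fell, with a median of -0.10 against 0.02 over all genes. The list's share called, 62.5%, was close to the 63.1% over all genes. After subtracting the GC and length trend 6 and 8 were called in these directions, where 47.5% of all genes were called. A second way to treat the trend, with each library's GC and length slopes as covariates of the fit, left 3 of 40 called, where 11.6% of all genes were called. The GC slope nearly separates the lithium libraries and the HT fluoxetine females (-0.26 to -0.06) from the others (-0.06 to 0.19). This fit can therefore hardly tell a lithium difference from the slopes, and calls lost in it decide nothing. Kif1a, which carries synaptic vesicle precursors, fell by -0.36 ± 0.025 (adjusted p = 2.73e-18), Kifc3 by -0.33 ± 0.033 and Kif3c by -0.19 ± 0.020. The mitotic kinesins Kif11 (0.30 ± 0.094, adjusted p = 0.00459) and Kif23 (0.22 ± 0.073) rose at mean normalised counts of 68.8 and 47.9. Kifap3, which links kinesin-2 to cargo, rose by 0.10 ± 0.035 at a mean of 9897. After subtracting the trend Kif11 (0.19), Kifap3 (-0.04) and Kifc3 (-0.01) were no longer called. Between HT and WT over all treatments 3 of 40 were higher (Kif9 0.12 ± 0.037, Kif18b 0.43 ± 0.14, Cenpe 0.28 ± 0.090) and 4 lower, among them Kif1a (-0.09 ± 0.020, adjusted p = 0.000942), Kif3c (-0.05 ± 0.016) and Kifc3 (-0.08 ± 0.026). The list's share called was 17.5%, against 14.7% over all genes. Without the 5 HT fluoxetine females 0 of 40 were called (2.96% of all genes). The 3 higher genes kept their size there, with Kif18b at 0.46 (adjusted p = 0.0771), Cenpe at 0.31 (0.0742) and Kif9 at 0.11 (0.151), whereas Kif1a stood at -0.03, Kif3c at -0.02 and Kifc3 at -0.02. Under vehicle 0 of 40 were called (0.106% of all genes). Under fluoxetine 7 fell (17.5% of the list against 20% of all genes). Kif1a (-0.11 ± 0.025), Kif1c (-0.11 ± 0.030) and Kif18b (-0.57 ± 0.17, at its mean of 11.2) were foremost. Without those females 0 were called (2.08% of all genes): Kif18b stood at -0.54 (adjusted p = 0.176), Kif1a at -0.02 and Kif1c at -0.04.

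Adaptors and cargo receptors connect kinesin-1 to organelles. Under lithium 18 of 50 rose and 22 fell (median -0.02), 80% of the list against 63.1% of all genes. With the slopes as covariates 10 of 50 were called, where 11.6% of all genes were called. Snapin (0.25 ± 0.017, adjusted p = 3.49e-18) and Bloc1s2 (0.29 ± 0.026), both of lysosome transport complexes, and Mtpn (0.28 ± 0.027) rose. Rrbp1, a receptor for kinesin-1 on the endoplasmic reticulum, fell by -0.47 ± 0.028 (adjusted p = 4.97e-21), and the JIP scaffolds Mapk8ip2 and Mapk8ip3, which bind light chains, fell by -0.34 ± 0.020 and -0.34 ± 0.021. After subtracting the GC and length trend 18 were higher and 16 lower, where 47.5% of all genes were called. Of the 6 named, Mapk8ip3 (0.02) and Mtpn (0.04) were no longer called. Under fluoxetine 7 rose (Bloc1s2 0.11 ± 0.026, Rhot1 0.08 ± 0.018, Fez2 0.12 ± 0.033) and 7 fell (Rrbp1 -0.14 ± 0.028, Clstn3 -0.13 ± 0.028, Dpysl2 -0.14 ± 0.030), 28% of the list against 20% of all genes. Without the 5 females 0 were called (2.08% of all genes), with Rrbp1 at -0.04 and Fez2 at 0.09 (adjusted p = 0.287). Between genotypes 2 of 50 were higher in HT and 14 lower, 32% of the list against 14.7% of all genes. Hap1, which couples kinesin-1 to huntingtin and other cargo, was higher by 0.20 ± 0.059 (adjusted p = 0.0127, and 0.24 with adjusted p = 0.0281 without the 5 females). Syne4 was higher by 0.19 ± 0.059. Dpysl2 was lower by -0.15 ± 0.024 (adjusted p = 2.46e-05, and -0.10 with 0.0429 without the females), followed by Mapk8ip2 (-0.09 ± 0.016) and Plekhm2 (-0.11 ± 0.020). Without those females 1 was higher and 2 lower, where 2.96% of all genes were called.

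Tubulins, the subunits of the track, fell together under lithium: 0 of 12 rose and 11 fell, with a median of -0.27. The share called was 91.7%, against 63.1% of all genes (30.4% lower). After subtracting the GC and length trend 11 of 12 were lower (median -0.22), where 47.5% of all genes were called. With the slopes as covariates, which nearly follow the lithium treatment, 0 of 12 were called, where 11.6% of all genes were. Tubb4a fell by -0.41 ± 0.029 (adjusted p = 6.16e-18), Tubb3 by -0.34 ± 0.040 and Tubb5 by -0.26 ± 0.033. Under fluoxetine these 3 fell as well (Tubb4a -0.13 ± 0.029, Tubb5 -0.10 ± 0.033, Tubb3 -0.11 ± 0.040), 25% of the list against 20% of all genes. Without the 5 females 0 did (Tubb4a -0.03, Tubb5 -0.01), where 2.08% of all genes were called. With the slopes as covariates 0 did, where 7.22% of all genes were called. In HT against WT 6 of 12 were lower (Tubb4a -0.13 ± 0.024, Tuba1b -0.12 ± 0.028, Tubb5 -0.12 ± 0.027), 50% of the list against 14.7% of all genes. None was called without the females (Tuba1b -0.08, Tubb4a and Tubb5 -0.05), where 2.96% of all genes were called. None was called with the slopes as covariates, where 14.1% of all genes were called. After subtracting the GC and length trend the named tubulins stayed called. Tubb4a was at -0.10 (limma, adjusted p = 0.00163), Tuba1b at -0.11 (0.00362) and Tubb5 at -0.12 (0.00207).

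Proteins that bind microtubules moved both ways under lithium, with 6 of 22 higher and 12 lower (median -0.13), 81.8% of the list against 63.1% of all genes. With the slopes as covariates 3 of 22 were called, where 11.6% of all genes were called. The stathmins Stmn1 (0.27 ± 0.028), Stmn3 (0.27 ± 0.036) and Stmn4 (0.16 ± 0.021), which sequester tubulin, rose, also after subtracting the trend (0.21, 0.30 and 0.18). Map1s (-0.58 ± 0.024, adjusted p = 3.76e-26), Map1a (-0.41 ± 0.024) and the kinase Mark2 (-0.24 ± 0.015) fell, but Mark2 turned to 0.08 after that step. Under fluoxetine 5 rose (Stmn4 0.09, Stmn1 0.11 and Stmn2 0.10 foremost) and 6 fell (Map1s -0.16, Map1a -0.12 and Mark2 -0.07 foremost), 50% of the list against 20% of all genes. Without the females 1 rose and 0 fell (2.08% of all genes were called), and with the slopes as covariates 1 was called (7.22% of all genes). In HT against WT 0 of 22 were higher and 9 lower, 40.9% of the list against 14.7% of all genes. Map1s (-0.13 ± 0.020), Map1a (-0.13 ± 0.020) and Map4 (-0.08 ± 0.014) came first. Without the females 1 was lower, where 2.96% of all genes were called. With the slopes as covariates 4 of 22 were called, where 14.1% of all genes were called. After subtracting the trend Map1s (-0.07) and Map1a (-0.09) stayed called, and Map4 (-0.05, adjusted p = 0.0910 by limma) did not.

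Dynein, which moves cargo the opposite way, and its activator dynactin had 15 of 32 genes higher and 8 lower under lithium (median 0.08). That was 71.9% of the list against 63.1% of all genes. With the slopes as covariates 2 of 32 were called, where 11.6% of all genes were called. Dynlt3 (0.38 ± 0.022), Hook1 (0.29 ± 0.022) and Dync1i2 (0.16 ± 0.013) rose. The dynein heavy chain Dync1h1 (-0.50 ± 0.028, adjusted p = 1.17e-21), the dynactin subunit Dctn1 (-0.42 ± 0.021) and Actr1a (-0.23 ± 0.020) fell. After subtracting the trend 10 were higher and 8 lower (47.5% of all genes were called), and Dynlt3 (0.05, adjusted p = 0.0961) and Dync1i2 were no longer called. Under fluoxetine 6 rose (Dynlt3 0.12, Dync1i2 0.06 and Dynlrb1 0.10 foremost) and 3 fell (Dctn1 -0.12, Dync1h1 -0.15, Actr1a -0.08), 28.1% of the list against 20% of all genes. Without the females 0 were called (2.08% of all genes). In HT 1 was higher (Dynll1 0.06 ± 0.018) and 4 were lower, including Dctn1 (-0.10 ± 0.017), Dync1h1 (-0.11 ± 0.023) and Dynll2 (-0.11 ± 0.026), 15.6% of the list against 14.7% of all genes. Without the females 1 was higher and 1 lower, where 2.96% of all genes were called.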

How the data were processed

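One table of 59 libraries was used. Its values are a normalised signal that the authors made from whole gene counts, with 1 size factor for each library. Dividing by the step between values gave back whole reads for 100% of the lower values, which were also used to find the step (within 0.01 read). Higher values, among them those of the heavy chains, Klc1 and Klc2, were rounded to whole reads without this check. The submitters' processing notes list Salmon (0.11.2), R (3.6.0), DESeq2 (1.19.11) and GRCm38, with no roles. Salmon shares out reads that match several transcripts, and how many the related Kif5 genes shared was not tested. Size factors spanned 0.827 to 1.129, and read number sets the counting error. GENCODE M21 supplied gene symbols, coordinates, length and GC content for 18077 of 18088 identifiers. Length was that of a gene's merged exons, and GC content that of its longest transcript.

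Log2 values, with 1 added, were tested by limma-trend (limma 3.58.1 in R 4.3.3), fitting 12 group means with 47 residual degrees of freedom to the 17891 genes that reached 10 in at least 4 libraries. Tests were two-sided, and p-values were adjusted by Benjamini and Hochberg's method over all these genes, with calls at 0.05. Contrasts are means of matched genotype, treatment and sex terms. A term with a missing group was dropped whole. Intervals are 95%. The members, the 5 pathway lists, the marker lists and the tests were chosen with earlier results of these data known. The text names the 6 genes with Klc3 and Naa15, and up to 3 called genes of smallest p per pathway list, direction and main comparison. It also names the 5 genes of highest r, and the nearest 2 tested protein-coding genes on each side of Kif5c.

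Alternatives were limma without trend or with a robust prior, quantile normalization, median centring, added constants of 0.5 and 5, no filter, a mean of at least 100, the compared groups alone, replicate blocks, subtraction of a spline (5 degrees of freedom) over GC content and length, the library slopes as covariates, leaving out the 5 HT fluoxetine females or single libraries, and count tests of the recovered reads by edgeR (4.0.16) and DESeq2 (1.42.0). The main test was tested on simulated data. Promoters came from RefSeq. Figures were drawn with matplotlib (3.10.9) in Python (3.11.15).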

Additional observations from a re-analysis of the deposited data

Results flagged for a closer look

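Of 72 groups of values (6 genes in 12 groups), 2 held a library far from the others, and chance alone gives about 1 in 20 groups. Kif5c in WT fluoxetine male replicate 5 was 23793, below the other 4 at 26416 to 27082. Klc4 in WT fluoxetine female replicate 5 was 588, above the other 4 at 485 to 503.

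The fluoxetine response differed between the genotypes for Klc1 (-0.17, adjusted p = 0.0114 by limma) and Klc2 (-0.18, adjusted p = 0.0237). Both differences ended without the 5 HT fluoxetine females (-0.02 and 0.0051), where the contrast rests on males alone.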

How the results depend on the processing

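Kif5c was higher in HT by 0.32 to 0.37 over all treatments under 14 alternatives and by 0.32 to 0.33 with any 1 library left out, and Kif5b by 0.26 to 0.32 and 0.27 to 0.29. Counts of called genes stayed within 1.5 times in 143 of 163 cases. The 20 changed counts follow. After subtracting the GC and length trend, the count went from 6 to 1 for lithium against vehicle, 6 to 2 for lithium against fluoxetine, 5 to 0 for lithium in WT and 6 to 0 in HT, 1 to 0 for fluoxetine, 3 to 0 for fluoxetine in HT and 2 to 0 for genotype by fluoxetine. With the library slopes as covariates, which nearly follow the lithium treatment, each lithium count was 1 (Kif5a, with the opposite sign) and each fluoxetine count 0. Without the 5 HT fluoxetine females these fluoxetine counts were 0, and under median centring fluoxetine against vehicle was 0 (Klc4 -0.09, adjusted p = 0.0548). A mean of at least 100 called 1 gene between the sexes (Kif5b 0.07, adjusted p = 0.0481) and quantile normalization 1 for genotype by sex (Klc1 -0.12, adjusted p = 0.0206). Leaving out 1 library gave 0 to 2 for fluoxetine, 1 to 3 for genotype by fluoxetine and 0 to 1 between the sexes. The share of all genes called is given for only some of these alternatives. Nothing about the 6 genes is therefore read from the changed counts.

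Values that changed sign did so as follows, and the cause was not tested. With the trend subtracted, lithium against vehicle was 0.0502 for Kif5a and 0.0136 for Klc2, lithium against fluoxetine 0.0368 for Kif5a, 0.0212 for Klc2 and 0.0300 for Klc4, lithium in WT 0.0874 for Kif5a and 0.0558 for Klc2, lithium in HT 0.0131 for Kif5a, fluoxetine in HT 0.0112 for Klc1 and 0.0119 for Klc2, and genotype by fluoxetine 0.0389 for Klc2. With slopes as covariates, Kif5a, Kif5c, Klc1, Klc2 and Klc4 were 0.38, 0.11, 0.0322, 0.11 and 0.0576 for lithium against vehicle and 0.30, 0.0724, 0.00657, 0.0859 and 0.0960 for lithium against fluoxetine. In WT, lithium gave 0.41 for Kif5a, 0.0307 for Klc1, 0.14 for Klc2 and 0.0522 for Klc4. In HT it gave 0.35 for Kif5a, 0.0921 for Kif5c, 0.0336 for Klc1, 0.0674 for Klc2 and 0.0630 for Klc4. Fluoxetine in HT was then 0.0426 for Klc1 and 0.0657 for Klc2, and genotype by fluoxetine 0.0339 and 0.0926. Quantile normalization gave Kif5c 0.0711 for lithium against vehicle, 0.0510 against fluoxetine and 0.0895 in HT. Without the 5 females Klc1 was 0.00032 for fluoxetine in HT and Klc2 0.00511 for genotype by fluoxetine. A further 56 uncalled values took the other sign and stayed uncalled.

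Replicate numbers did not pair the libraries: residuals correlated at 0.0104 for the same number and -0.0026 for different numbers, and 16 of 59 libraries correlated best with their own number. With the replicate number as a block, counts of called genes were 6 for lithium, 1 for fluoxetine, 5 and 6 for lithium in WT and HT, 3 for fluoxetine in HT and 2 for genotype by fluoxetine, and no call of the 6 genes changed.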

Other observations

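The ratio of summed heavy to summed light chains, both per kb of exon, was 2.14 ± 0.108 (SD, n = 10) in WT vehicle libraries. In HT vehicle libraries it was 2.33 ± 0.199 (SD, n = 9). Under lithium the WT ratio was 2.38 ± 0.237 (SD, n = 10), and HT libraries had 2.56 ± 0.249 (SD, n = 10). These ranges overlapped, and the ratio was not tested.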
